A study of Mus musculus with 6 samples.

Results

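The transcripts described here encode the degradative machinery of the lysosome: 39 genes for hydrolases, their soluble cofactors, membrane proteins, the proton pump and the MiT/TFE transcription factors that switch many of them on. They were taken by name from the deposited counts of 4T1, a metastatic carcinoma line of the mouse mammary gland, and all 39 symbols were found among the 48587 genes listed. Of these, 38 passed the abundance filter that left 13166 genes for testing. Ctss, the cathepsin of antigen-presenting cells, did not pass, with at most 2 counts in a METTL7A1 library and 0 in every mock library.

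The study asked how METTL7A1, a putative methyltransferase that is scarce in transformed mammary cells, alters these cells, and total RNA depleted of ribosomal RNA was sequenced from 6 libraries. The METTL7A1 group comprised 3 libraries of 4T1 cells stably transfected with full-length Mettl7a1 cDNA in the plasmid pBICEP-CMV-2, in which a viral CMV promoter drives the insert, and the mock group comprised 3 libraries of control cells that received the empty vector. The cells were grown in DMEM/F12 with fetal bovine serum, and transfectants were held under G418. The libraries are called biological triplicates, but whether each line was a clone or a pool is not given in the sources used here, so p-values measure the spread between these libraries. Counts of Mettl7a1 itself ranged from 6355 to 11358 over the METTL7A1 libraries and from 29 to 30 over the mock libraries, so every library followed its label.

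Lysosomal hydrolases are made in the endoplasmic reticulum, tagged with mannose 6-phosphate in the Golgi and carried to the lysosome, where proteases, glycosidases and lipases work at acid pH. The vacuolar H+-ATPase, built of a cytosolic V1 and a membrane-bound V0 sector, pumps the protons, and heavily glycosylated membrane proteins line the limiting membrane. TFEB, TFE3 and MITF, basic helix-loop-helix leucine zipper factors, enter the nucleus when the nutrient sensor mTORC1 is inactive, and bind a palindromic element known as the CLEAR motif in the promoters of many lysosomal genes.

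Promoters are shown first, with the E-box at the core of the CLEAR motif. That motif is known from promoters of lysosomal genes, and the set was chosen as lysosomal genes. A high share of it here is therefore no independent result. Windows from 250 bases before to 50 bases after annotated starts were taken from RefSeq (GRCm38.p6, the build also known as mm10), and 33 of the 39 genes had at least 1 window. The letters CACGTG, which read the same on both strands, occurred in a window of 10 of these 33 genes (30.3%), against 2187 of 27025 genes of the RefSeq table (8.09%). In each of the 10 genes at least 1 E-box was flanked as TCACGTG on either strand, which held for 4.29% of all genes. The longer palindrome TCACGTGA, which contains both shorter strings, was present in 6 of 33 genes (18.2%) and in 1.12% of all genes. No share was taken over the 13166 tested genes alone. A match describes letters in a window and does not show that a factor binds there.

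The following stretches, printed 5′ to 3′ on the strand of the gene, are those of 4 genes that were higher in METTL7A1 cells and of 3 that did not pass the test, because both sets carry the same letters. Capitals mark TCACGTG or its reverse complement, extended to TCACGTGA where the palindrome is complete. Ctsa is on chr2:164833731-164833787 (plus strand, at the downstream one of its RefSeq starts), Gla on chrX:134601164-134601255 (minus), Lamp1 on chr8:13159070-13159175 (plus) and Mcoln1 on chr8:3500418-3500509 (plus). Ctsd is on chr7:142387890-142388077 (minus), Atp6v1a on chr16:44139355-44139420 (minus) and Atp6v0d1 on chr8:105566050-105566097 (minus).
Ctsa: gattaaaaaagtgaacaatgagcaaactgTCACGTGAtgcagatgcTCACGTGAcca
Gla: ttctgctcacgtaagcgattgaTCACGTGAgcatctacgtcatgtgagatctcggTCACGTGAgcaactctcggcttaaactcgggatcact
Lamp1: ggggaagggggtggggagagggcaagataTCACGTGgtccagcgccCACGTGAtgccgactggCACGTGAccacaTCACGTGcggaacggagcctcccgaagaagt
Mcoln1: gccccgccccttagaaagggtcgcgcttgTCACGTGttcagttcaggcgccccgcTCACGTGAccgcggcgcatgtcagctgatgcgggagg
Ctsd: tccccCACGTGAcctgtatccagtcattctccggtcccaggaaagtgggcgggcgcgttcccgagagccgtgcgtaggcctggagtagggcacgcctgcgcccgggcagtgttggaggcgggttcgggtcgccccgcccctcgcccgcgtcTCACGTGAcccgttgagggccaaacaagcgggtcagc
Atp6v1a: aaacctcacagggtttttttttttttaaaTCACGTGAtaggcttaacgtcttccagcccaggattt
Atp6v0d1: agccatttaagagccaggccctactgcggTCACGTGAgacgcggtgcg

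Lamp1 held 4 E-boxes, at 61, 45, 28 and 15 bases upstream of its start. Gla held 2, at 227 and 194 bases upstream, Mcoln1 held 2, at 71 and 45, and Ctsd held 2, at 245 and 98. An E-box was present in 6 of 18 genes called higher (33.3%) and in 4 of 13 genes that were tested and not called (30.8%). It was also present in 2 of 5 proton pump genes with a window, Atp6v1a and Atp6v0d1, so the letters were found both in genes that rose and in genes that were not called.

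Abundance is given as cpm, the counts of a gene per 1000000 counts of its library, with library sizes corrected by TMM (trimmed mean of M values). A gene was called higher or lower when its adjusted p was under 0.05 in edgeR's quasi-likelihood test with Benjamini-Hochberg adjustment over all 13166 genes, and every adjusted p in the text is from this fit unless an alternative is named. The libraries held 18386780 to 28459338 counts, and tested genes took 99.76% to 99.82% of them. Replicates 1, 2 and 3 of METTL7A1 gave 0.345%, 0.413% and 0.412% of their counts to the 39 genes, and those of mock gave 0.288%, 0.324% and 0.310%. Differences in transcript level in a culture cannot be told apart from differences in the share of cells that express the transcript.

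More lysosomal transcripts rose than fell. Of the 38 tested, 19 were higher in METTL7A1 cells (50%), 2 were lower (5.26%) and 17 were not called. Among all 13166 tested genes 42.1% were called in either direction, 21.1% higher and 21.0% lower, so the share higher was above that of the whole table and the share lower was below it. Over the 38 genes the median log2 fold change was 0.26 (range -0.62 to 1.07), beside -0.03 for all tested genes, and 32 of 38 values were positive. The rises were small: the 19 genes called higher had log2 fold changes of 0.31 to 1.07, or 1.24- to 2.10-fold, with a median of 0.52. None of the 38 met the thresholds of the study, an adjusted p under 0.01 and a log2 fold change over 1.5 in either direction, which 326 genes (2.48%) of the table met. In 23 of the 38 the METTL7A1 and mock libraries did not overlap, beside 51.6% of all tested genes. The plot of all 38 transcripts by library shows the shift and its spread.

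**Figure D1:**
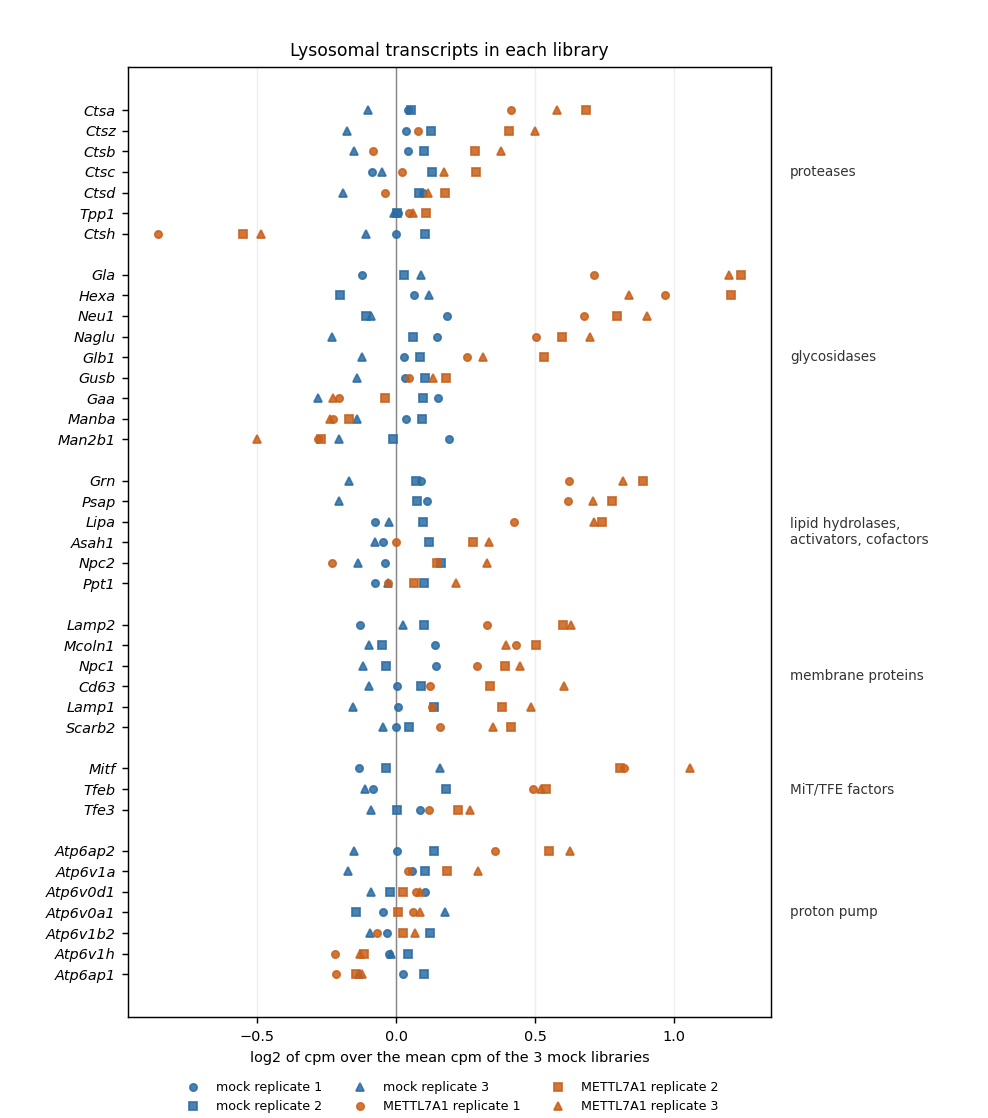
Abundance of each tested lysosomal transcript in each library, as log2 of cpm over the mean cpm of the 3 mock libraries (horizontal axis), with genes in rows by role. Colours mark the groups and symbols the replicates; the median over genes is 0.10, 0.31 and 0.34 in METTL7A1 replicates 1 to 3, and METTL7A1 replicate 1 lies below the other METTL7A1 libraries for 30 of 38 genes.

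Libraries of a group differed from each other across the whole set. Relative to the mean of the mock libraries, the median over the 38 transcripts was 0.10, 0.31 and 0.34 on the log2 scale in METTL7A1 replicates 1 to 3 and 0.03, 0.09 and -0.10 in mock replicates 1 to 3, while the same median over all tested genes stayed between -0.03 and 0.02. METTL7A1 replicate 1 was the lowest METTL7A1 library for 30 of 38 transcripts, and mock replicate 3 the lowest mock library for 28. Leaving out METTL7A1 replicate 1 raised the median to 0.37, and leaving out mock replicate 3 lowered it to 0.23.

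Changes also differed between chromosomes. The median log2 fold change of abundant genes ranged from -0.42 on chromosome 12 to 0.34 on chromosome 18. As an alternative, each gene was therefore set against the 40 abundant genes nearest to it, by subtracting the median of their log2 fold changes (neighbour correction), which called 31.5% of all tested genes. Of the 19 transcripts called higher, 14 were also called with this correction, and Cd63, Ctsz, Lamp1, Npc1 and Psap were not. Ctsb, Ctsc, Gusb, Npc2 and Tpp1 were called higher with the correction alone, so that the total was 19 in both. The plot of log2 fold changes shows the median of the neighbours beside each gene.

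**Figure D2:**
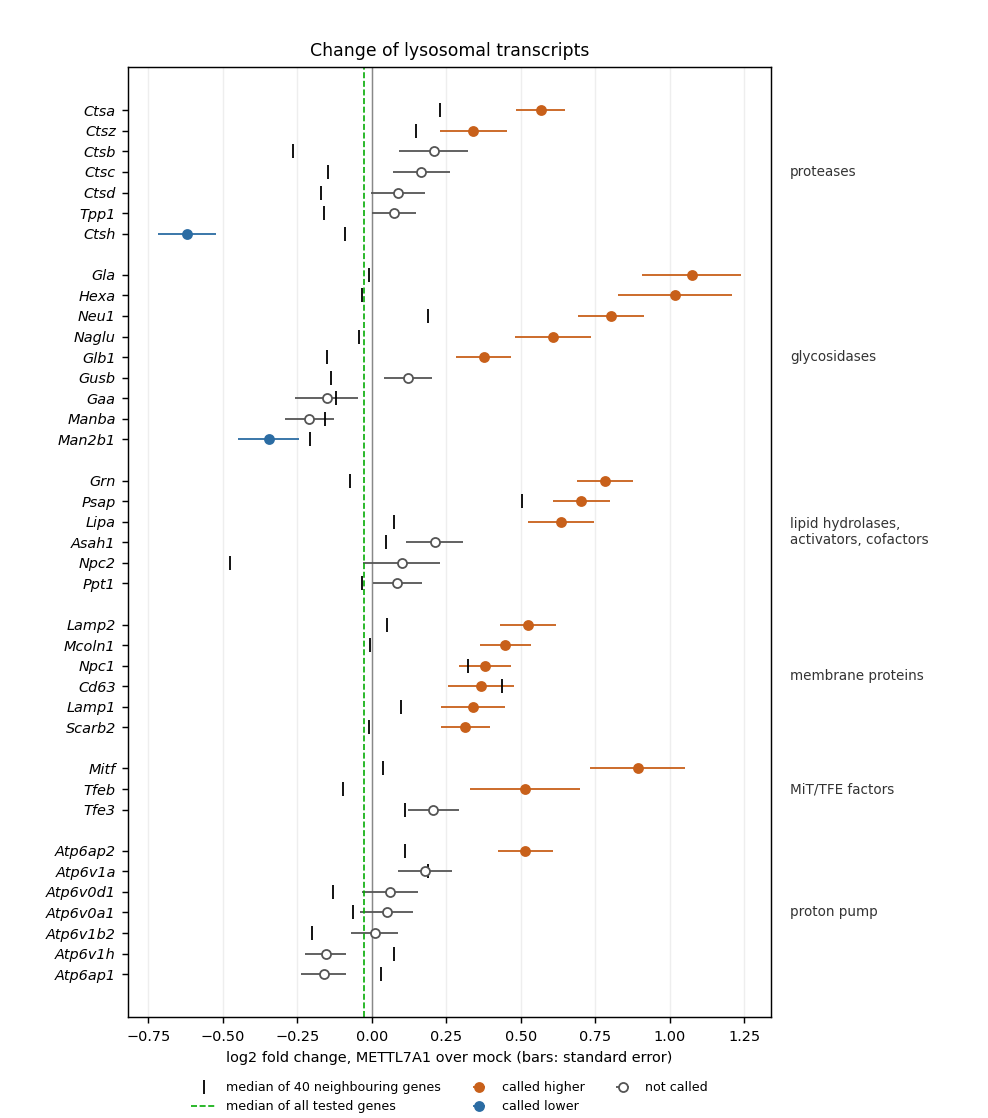
Log2 fold change of each tested lysosomal transcript, METTL7A1 over mock (horizontal axis), with its standard error as a bar and the median of its 40 neighbouring genes as a vertical tick. Filled points are genes called higher or lower, open points were not called, and the dashed line is the median of all tested genes (-0.03); the 6 membrane proteins all lie to the right, and 6 of the 7 proton pump genes are open.

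Among the proteases, 2 of 7 tested transcripts rose, 1 fell and 4 were not called, and their median log2 fold change was 0.17. The share called was 42.9%, near the 42.1% of all tested genes. Ctsa encodes cathepsin A, a carboxypeptidase that also holds beta-galactosidase and neuraminidase 1 in a complex. Its abundance was 71.1, 85.7 and 79.8 cpm in METTL7A1 replicates 1 to 3 and 54.9, 55.4 and 49.7 cpm in mock replicates 1 to 3. All METTL7A1 libraries were above all mock libraries, and Ctsa rose by 0.57 on the log2 scale (SE 0.08, edgeR adjusted p = 0.000313). Ctsz, which encodes the carboxypeptidase cathepsin Z, had 138, 173 and 185 cpm in METTL7A1 and 134, 143 and 116 cpm in mock replicates 1 to 3. METTL7A1 replicate 1 lay within the mock range, and Ctsz rose by 0.34 (SE 0.11, edgeR adjusted p = 0.0297). That call was lost without METTL7A1 replicate 2 (adjusted p = 0.106 in edgeR), METTL7A1 replicate 3 (0.104), mock replicate 1 (0.0621) or mock replicate 3 (0.0683), and with the neighbour correction (0.223).

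Ctsh went the other way. It encodes cathepsin H, an aminopeptidase, and had 52.4, 64.9 and 67.8 cpm in METTL7A1 replicates 1 to 3 against 95.0, 102 and 88.1 cpm in mock replicates 1 to 3. The groups did not overlap and Ctsh fell by 0.62 on the log2 scale (SE 0.10, edgeR adjusted p = 0.000488). It kept this call under every alternative fit.

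The broad-range endoproteases were not called. Ctsb, a cysteine protease, had a mean of 254 ± 40.9 cpm in METTL7A1 and 220 ± 19.8 cpm in mock cells (SD, n = 3 each), with a log2 fold change of 0.21 and a 95% interval of -0.05 to 0.46. Ctsd, the main aspartic protease of the lysosome, was at 119 ± 9.15 and 112 ± 12.2 cpm (SD, n = 3 each), with an interval of -0.11 to 0.29. For Ctsc, an aminopeptidase that activates granule proteases, the interval was -0.04 to 0.37, and for Tpp1, a tripeptidyl peptidase, -0.09 to 0.23. Ctsb was called without METTL7A1 replicate 1 (log2 fold change 0.34, edgeR adjusted p = 0.00597).

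Glycosidases held the largest rises. Of 9 tested, 5 rose, 1 fell and 3 were not called, and the median log2 fold change was 0.38. Calls were made for 66.7%, beside 42.1% of all tested genes. Gla, alpha-galactosidase A, which removes terminal galactose from globosides, had 6.63, 9.58 and 9.29 cpm in METTL7A1 and 3.72, 4.13 and 4.31 cpm in mock replicates 1 to 3. Every METTL7A1 library was above the highest mock library, and Gla rose by 1.07 on the log2 scale (SE 0.17, edgeR adjusted p = 0.000440). Hexa, the alpha subunit of beta-hexosaminidase, which degrades GM2 ganglioside, had 3.99, 4.71 and 3.65 cpm against 2.13, 1.77 and 2.21 cpm. Its groups did not overlap either, and it rose by 1.02 (SE 0.19, edgeR adjusted p = 0.00153). Both transcripts were among the scarcest of the set, at 1.28 and 1.09 cpm per kilobase of exon length in mock cells.

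Neu1, the sialidase of the cathepsin A complex, had 17.9, 19.5 and 21.0 cpm in METTL7A1 and 12.7, 10.4 and 10.5 cpm in mock replicates 1 to 3, and rose by 0.80 (SE 0.11, edgeR adjusted p = 0.000199). Glb1, beta-galactosidase, had 36.1, 43.8 and 37.6 cpm against 30.9, 32.1 and 27.8 cpm, and rose by 0.38 (SE 0.09, edgeR adjusted p = 0.00751). For neither gene did the groups overlap, and with Ctsa all 3 enzymes of this complex rose. Naglu, which cleaves N-acetylglucosamine from heparan sulfate, had 11.0, 11.7 and 12.6 cpm against 8.58, 8.09 and 6.60 cpm. It rose by 0.61 (SE 0.13, edgeR adjusted p = 0.00300), again with no overlap. Exons of Glb1 share 175 of 2395 bases with Tmppe on the same strand, a gene of 571 to 917 counts whose own log2 fold change of -0.13 was not called (edgeR adjusted p = 0.164).

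The mannosidases did not follow. Man2b1, the alpha-mannosidase of glycoprotein breakdown, had 69.5, 69.9 and 59.6 cpm in METTL7A1 and 96.3, 83.6 and 73.2 cpm in mock replicates 1 to 3. The lowest mock library was just above the highest METTL7A1 library, and Man2b1 fell by 0.35 on the log2 scale (SE 0.10, edgeR adjusted p = 0.0184). Without METTL7A1 replicate 3 its adjusted p was 0.0751 in edgeR, without mock replicate 1 it was 0.106, and with the neighbour correction 0.338. Manba, beta-mannosidase, had a log2 fold change of -0.21 (edgeR adjusted p = 0.0639), with groups that did not overlap. Gaa, the acid glucosidase of glycogen breakdown, was at -0.15 and Gusb, beta-glucuronidase, at 0.12, with intervals of -0.39 to 0.08 and -0.05 to 0.30. Without mock replicate 3 both Manba (adjusted p = 0.0190) and Gaa (0.0158) were called lower in edgeR.

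Of the 6 lipid hydrolases and soluble cofactors, 3 rose (50%, beside 21.1% of all tested genes) and 3 were not called (median log2 fold change 0.42). Grn, progranulin, a secreted precursor that is cleaved to granulins in the lysosome, had 177, 213 and 203 cpm in METTL7A1 and 122, 121 and 102 cpm in mock replicates 1 to 3. The groups were far apart, and Grn rose by 0.78 on the log2 scale (SE 0.09, edgeR adjusted p = 7.57e-05), the smallest adjusted p of the set. Psap, prosaposin, the precursor of the saposins that present sphingolipids to their hydrolases and a binding partner of progranulin, had 505, 564 and 537 cpm against 355, 347 and 285 cpm. It rose by 0.70 (SE 0.10, edgeR adjusted p = 0.000199) with no overlap, but its neighbours on chromosome 10 had a median of 0.50, and with the neighbour correction 0.20 remained (adjusted p = 0.141 in edgeR). For Grn the neighbours had a median of -0.07 and the corrected value was 0.86. Lipa, the acid lipase that frees cholesterol and fatty acids from lipoprotein lipids, had 15.7, 19.5 and 19.1 cpm against 11.1, 12.5 and 11.5 cpm, and rose by 0.64 (SE 0.11, edgeR adjusted p = 0.000924) with no overlap.

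Asah1, acid ceramidase, was at 0.21 on the log2 scale (edgeR adjusted p = 0.0999) and Ppt1, a thioesterase that removes palmitate from proteins, at 0.09 (edgeR adjusted p = 0.432). Npc2, which hands free cholesterol to Npc1, was at 217 ± 41.2 cpm in METTL7A1 and 203 ± 21.9 cpm in mock cells (SD, n = 3 each), with a log2 fold change of 0.10 and an interval of -0.18 to 0.38. The neighbours of Npc2 on chromosome 12 had a median of -0.48, and its value with the neighbour correction was 0.58 (edgeR adjusted p = 0.00575). Asah1 and Npc2 were called higher without METTL7A1 replicate 1, with edgeR adjusted p of 0.00621 and 0.0463.

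All 6 lysosomal membrane proteins rose, beside 21.1% of all tested genes, within a narrow range of 0.31 to 0.52 on the log2 scale (median 0.37). Lamp2, a main glycoprotein of the limiting membrane with a splice form that serves chaperone-mediated autophagy, had 140, 169 and 172 cpm in METTL7A1 and 102, 119 and 113 cpm in mock replicates 1 to 3. Its groups did not overlap, and it rose by 0.52 (SE 0.09, edgeR adjusted p = 0.00110). Mcoln1, the calcium channel TRPML1, had 32.0, 33.5 and 31.1 cpm against 26.1, 22.9 and 22.1 cpm, and rose by 0.45 (SE 0.09, edgeR adjusted p = 0.00166). Scarb2, also called LIMP-2, a sorting receptor of the lysosomal membrane, had 40.2, 48.0 and 45.9 cpm against 36.0, 37.2 and 34.9 cpm. It rose by 0.31 (SE 0.08, edgeR adjusted p = 0.00967), and without METTL7A1 replicate 2 its adjusted p was 0.0710 in edgeR. Neither Mcoln1 nor Scarb2 had overlapping groups.

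The calls of the other three membrane proteins were lost with the neighbour correction. Npc1, which moves cholesterol out of the lysosome, had 34.5, 37.0 and 38.4 cpm in METTL7A1 and 31.2, 27.6 and 26.0 cpm in mock replicates 1 to 3, and rose by 0.38 (SE 0.09, edgeR adjusted p = 0.00482). Cd63, a tetraspanin of late endosomes and exosomes, had 202, 235 and 282 cpm against 186, 198 and 174 cpm, and rose by 0.37 (SE 0.11, edgeR adjusted p = 0.0201). Their neighbours had medians of 0.32 and 0.44, and the values with the neighbour correction were 0.06 and -0.07, neither of them called. Lamp1, the most used marker of the lysosomal membrane, had 425, 507 and 545 cpm against 390, 428 and 349 cpm. METTL7A1 replicate 1 lay just below mock replicate 2, and Lamp1 rose by 0.34 (SE 0.11, edgeR adjusted p = 0.0252). With a neighbour median of 0.10 its corrected value was 0.24 (edgeR adjusted p = 0.110).

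The calls of Lamp1 and Cd63 were also lost in several of the fits that left out 1 library, from either group. For Lamp1 the edgeR adjusted p was 0.0876 without METTL7A1 replicate 2, 0.0910 without METTL7A1 replicate 3, 0.0619 without mock replicate 1 and 0.0553 without mock replicate 3. For Cd63 it was 0.0560 without METTL7A1 replicate 2, 0.0748 without METTL7A1 replicate 3 and 0.0554 without mock replicate 1. The direction was positive in all of these.

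Of the 3 MiT/TFE transcripts 2 rose (66.7%, beside 21.1% of all tested genes), Mitf and Tfeb, which were also the scarcest tested transcripts per length. Mitf, the family member best known from melanocytes and osteoclasts, had 5.60, 5.55 and 6.61 cpm in METTL7A1 and 2.90, 3.09 and 3.54 cpm in mock replicates 1 to 3. All METTL7A1 libraries were above all mock libraries, and Mitf rose by 0.89 on the log2 scale (SE 0.16, edgeR adjusted p = 0.00109), the largest rise of the set after Gla and Hexa. Tfeb, a factor known for its control of lysosome formation, had 3.18, 3.28 and 3.24 cpm against 2.13, 2.56 and 2.09 cpm. Its groups did not overlap and it rose by 0.51 (SE 0.18, edgeR adjusted p = 0.0419), the weakest call among the 19. Tfe3, the most abundant of the family here, had 23.9, 25.6 and 26.4 cpm against 23.3, 22.0 and 20.6 cpm, a log2 fold change of 0.21 that was not called (SE 0.08, edgeR adjusted p = 0.0690) although the groups did not overlap.

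The call of Tfeb was lost in 8 of 14 alternative fits, with its log2 fold change between 0.46 and 0.61 throughout. It was lost in 5 of the 6 fits that left out 1 library, with an edgeR adjusted p of 0.0617 without METTL7A1 replicate 1, 0.127 without replicate 2 and 0.0907 without replicate 3 of that group, and of 0.0923 without mock replicate 1 and 0.0738 without mock replicate 3. It was also lost in DESeq2 (adjusted p = 0.0953) and with no abundance filter in edgeR (adjusted p = 0.0564). Tfe3, in turn, was called without METTL7A1 replicate 1 (edgeR adjusted p = 0.0325). Transcript levels do not report where these factors are in the cell, which is the main way they are controlled.

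Most of the proton pump was not called: 1 of 7 transcripts rose and 6 did not pass the test, and the median log2 fold change was 0.05. The share higher was 14.3%, beside 21.1% of all tested genes. Atp6ap2, an accessory subunit also known as the prorenin receptor, had 67.9, 77.7 and 81.8 cpm in METTL7A1 and 53.2, 58.3 and 47.8 cpm in mock replicates 1 to 3. Its groups did not overlap, and it rose by 0.52 (SE 0.09, edgeR adjusted p = 0.00112), a call kept under every alternative fit. Among V1 subunits, Atp6v1a, the catalytic subunit, had a log2 fold change of 0.18, Atp6v1b2, which forms the catalytic ring with it, of 0.01 and Atp6v1h, which couples the sectors, of -0.15. Among V0 subunits, Atp6v0d1 was at 0.06 and Atp6v0a1, an isoform of the subunit that carries protons through the membrane, at 0.05. Atp6ap1, the other accessory subunit, was at -0.16.

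For these 6 transcripts the edgeR adjusted p ran from 0.0921 to 0.937, and the 95% intervals of the log2 fold changes together spanned -0.33 to 0.38. Rises of the size of Gla or Mitf lay outside every one of them. The median of all members, 0.26, lay inside the intervals of Atp6v1a (-0.02 to 0.38) and Atp6v0d1 (-0.14 to 0.27). The intervals of Atp6v1h, Atp6v1b2, Atp6v0a1 and Atp6ap1 ended below it. Atp6v1h was lower in all METTL7A1 libraries than in all mock libraries, and was called lower with the neighbour correction (-0.23, edgeR adjusted p = 0.0261). Atp6v1a was called higher without METTL7A1 replicate 1 (edgeR adjusted p = 0.0297), and Atp6ap1 lower without mock replicate 3 (edgeR adjusted p = 0.0276). The difference between the pump and the other groups was not tested.

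**Figure D3:**
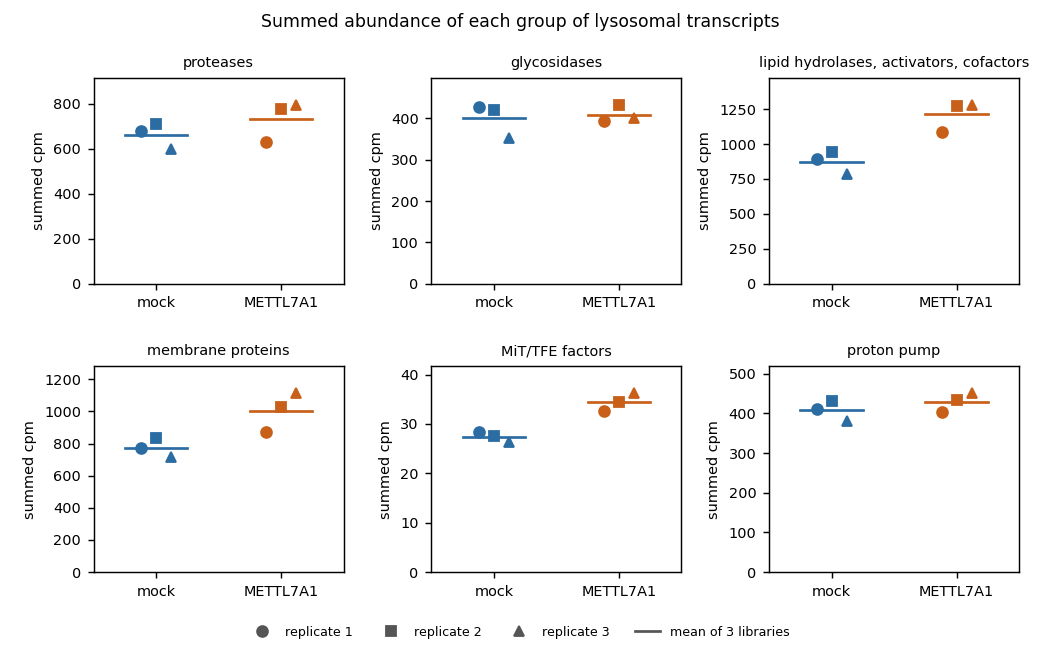
Summed abundance (cpm, vertical axes from 0) of the transcripts of each role in each library, with 3 mock and 3 METTL7A1 libraries per panel, symbols for replicates and a line at the group mean. The groups do not overlap for the lipid hydrolases and cofactors, the membrane proteins and the MiT/TFE factors, and overlap for the proteases, the glycosidases and the proton pump.

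Sums over each role show the same libraries by group. The lipid hydrolases and cofactors together had 1085, 1274 and 1280 cpm in METTL7A1 and 894, 941 and 789 cpm in mock replicates 1 to 3, and the membrane proteins 874, 1029 and 1115 cpm against 771, 833 and 719 cpm. The 3 MiT/TFE transcripts added up to 32.7, 34.5 and 36.3 cpm against 28.3, 27.6 and 26.3 cpm. In these roles every METTL7A1 library was above every mock library. Abundant genes weigh most in such sums: the mock means were 329 cpm for Psap, 389 for Lamp1, 186 for Cd63 and 22.0 for Tfe3. The calls of Psap, Lamp1 and Cd63 were lost with the neighbour correction, and Tfe3 was not called. The proteases ranged from 630 to 795 cpm in METTL7A1 and from 599 to 708 cpm in mock cells, the glycosidases from 394 to 432 and from 353 to 428 cpm, and the pump from 404 to 452 and from 382 to 431 cpm, all with overlap. An exact permutation test of 3 against 3 libraries cannot give a p under 0.1, so the sums carry no test.

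Divided by exon length, the levels spanned a wide range in mock cells. Cd63 was the most abundant at 180 cpm per kilobase, followed by Lamp1 at 174, Psap at 120 and Ctsz at 90.8, and Tfeb was the scarcest tested transcript at 0.563, below Mitf at 0.597, Hexa at 1.09 and Gla at 1.28. In METTL7A1 cells Cd63 stood at 233 cpm per kilobase, Lamp1 at 221 and Psap at 195. The spread over libraries of Cd63 and of Lamp1 covered the gap between them in both groups. The order of the genes changed little, by at most 5 ranks: Ctsh went from rank 7 to 12, and Neu1 from 32 to 27. The plot of levels per length shows that the largest rises were at the scarce end.

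**Figure D4:**
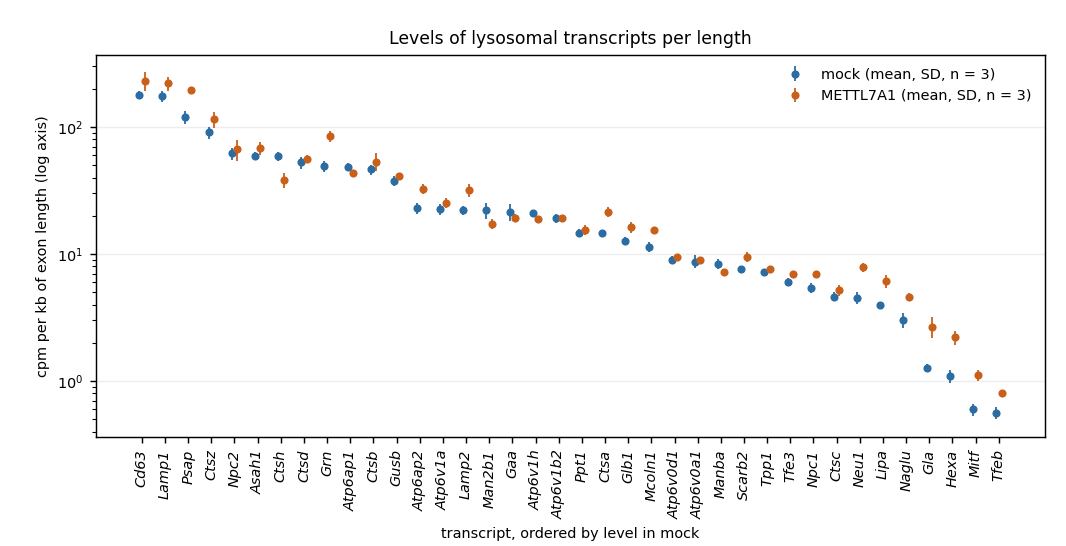
Level of each tested lysosomal transcript as cpm per kilobase of exon length (vertical log axis), with genes ordered by their level in mock cells; points are means and bars SD of 3 libraries per group. Levels run from 180 (Cd63) to 0.563 (Tfeb) in mock cells, and Gla, Hexa and Mitf at the scarce end show wide gaps between the groups.

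Other hydrolases and activators, 30 genes listed beside the set, gave a similar picture. Of 28 tested, 15 rose (53.6%, beside 21.1% of all tested genes) and the other 13 were not called. Of the 28 log2 fold changes 3 were negative (median 0.32). Dpp7, Ctsw and Galc had the smallest p of those reported here. Dpp7, a dipeptidyl peptidase, had 11.0, 10.3 and 9.45 cpm in METTL7A1 and 0.875, 0.990 and 0.765 cpm in mock replicates 1 to 3, a rise of 3.54 on the log2 scale (SE 0.17, edgeR adjusted p = 1.47e-07). Every mock library was under the 1 cpm of the filter, so Dpp7 passed it through the METTL7A1 libraries alone, which favours a rise. Ctsw, a cathepsin known from cytotoxic lymphocytes, rose by 1.61 (SE 0.10), and these 2 transcripts also met the thresholds of the study. Galc, galactosylceramidase, rose by 0.77 (SE 0.07).

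A pair of further genes was picked out after their values were seen. Gm2a, the activator that lifts GM2 ganglioside out of the membrane for beta-hexosaminidase, rose by 0.90 (SE 0.12, edgeR adjusted p = 0.000158), and Hexa, above, was also higher. Ctsl, an abundant endoprotease, had a log2 fold change of -0.26 that was not called (edgeR adjusted p = 0.0743).

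The rest of the pump showed no common rise. Of 18 other subunit genes 13 were tested, and 2 rose, 4 fell and 7 were not called, with a median of -0.16. The shares were 15.4% higher and 30.8% lower, beside 21.1% and 21.0% of all tested genes. Atp6v0a2, an isoform of the proton-carrying subunit found in the Golgi and endosomes, had 64.2, 65.8 and 69.2 cpm in METTL7A1 and 101, 99.2 and 92.9 cpm in mock replicates 1 to 3, and fell by 0.56 (SE 0.07, edgeR adjusted p = 8.57e-05). The isoforms with restricted tissue ranges, Atp6v0e2 and Atp6v1c2, fell by 1.84 (SE 0.24) and 1.48 (SE 0.20) from 2.35 and 3.90 cpm in mock cells. Atp6v0e2 was under 1 cpm in every METTL7A1 library and passed the filter through the mock libraries alone, which favours a fall. Atp6v1g1 fell by 0.35 (SE 0.12, edgeR adjusted p = 0.0327), and Atp6v0c, the proteolipid of the rotor, rose by 0.59 (SE 0.19, edgeR adjusted p = 0.0249) from 2.26 cpm, a low level for a gene with several near-identical copies that can share its reads. With the neighbour correction 3 were lower and 1 was higher. The higher gene was Atp6v1d, at -0.22 and not called without the correction, and at 0.29 with it (edgeR adjusted p = 0.0353). The calls of Atp6v1g1 (-0.17, edgeR adjusted p = 0.301) and Atp6v0c (0.46, edgeR adjusted p = 0.0821) were lost. So was that of the other gene that had risen, Atp6v0e (0.040, edgeR adjusted p = 0.794).

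**Figure D5:**
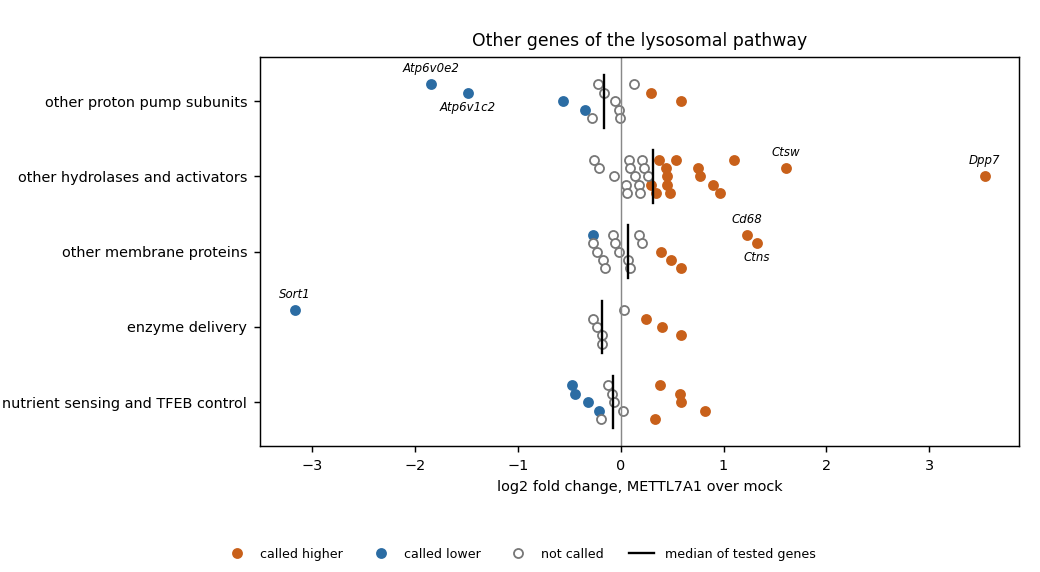
Log2 fold change, METTL7A1 over mock (horizontal axis), of every tested gene in 5 lists of lysosomal genes outside the set, with filled points for genes called higher or lower, open points for genes not called and a bar at the median of each list. Other hydrolases lie mostly to the right (median 0.32, 15 of 28 higher), other proton pump subunits to the left (median -0.16, 4 of 13 lower), and Sort1 and Dpp7 are the farthest out.

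Other membrane proteins, 21 genes of which 17 were tested, had 5 higher, 1 lower and 11 not called, with a median of 0.07. The share called was 35.3%, beside 42.1% of all tested genes. Ctns, the cystine exporter, rose by 1.33 (SE 0.13), Cd68, a glycoprotein of macrophage lysosomes, by 1.23 (SE 0.14), Clcn7, the chloride-proton exchanger, by 0.58 (SE 0.07), Tpcn1, a cation channel, by 0.49 (SE 0.09) and Slc17a5, the sialic acid exporter, by 0.40 (SE 0.10), with edgeR adjusted p of 2.45e-05 to 0.00667. Cd68 had 11.3, 13.2 and 13.8 cpm in METTL7A1 against 4.65, 5.49 and 6.16 cpm in mock replicates 1 to 3. With the neighbour correction 7 were higher, among them Ostm1, a subunit of the Clcn7 exchanger and the 1 gene called lower without it, which went from -0.27 to 0.25 (edgeR adjusted p = 0.0428).

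Of 9 genes of enzyme delivery, 3 rose, 1 fell and 5 were not called, with a median of -0.18. The share called was 44.4%, near the 42.1% of all tested genes. Sort1, sortilin, a sorting receptor that carries prosaposin and other cargo from the Golgi and takes up progranulin at the cell surface, had 0.431, 0.576 and 0.689 cpm in METTL7A1 and 5.08, 6.35 and 4.19 cpm in mock replicates 1 to 3. Sort1 fell by 3.17 on the log2 scale (SE 0.26, edgeR adjusted p = 5.12e-06). It was under 1 cpm in every METTL7A1 library and passed the filter through the mock libraries alone, which favours a fall. The transcripts of both cargoes, Psap and Grn, were called higher, Psap not with the neighbour correction (0.20, edgeR adjusted p = 0.141). A link to Sort1 was not tested. Gnptab, which starts the mannose 6-phosphate tag, rose by 0.59 (SE 0.08, edgeR adjusted p = 0.000127), Igf2r, the large mannose 6-phosphate receptor, by 0.40 (SE 0.11, edgeR adjusted p = 0.0143), and Gga1, an adaptor of these receptors, by 0.25 (SE 0.07, edgeR adjusted p = 0.0139). All 3 of these rises were lost with the neighbour correction, with values of 0.16 for Gnptab (edgeR adjusted p = 0.136), 0.14 for Igf2r (0.378) and 0.027 for Gga1 (0.803), while the fall of Sort1 was still called.

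Genes of nutrient sensing and TFEB control went both ways: of 14 tested among 18 listed, 5 rose, 4 fell and 5 were not called, with a median of -0.07. Shares of 35.7% higher and 28.6% lower stood beside 21.1% and 21.0% of all tested genes. Sqstm1, the autophagy receptor p62, rose by 0.82 (SE 0.09, edgeR adjusted p = 5.93e-05). Fnip1 and Flcn, partners in a complex that lets mTORC1 hold TFEB and TFE3 in the cytosol, rose by 0.58 (SE 0.08) and 0.34 (SE 0.09). All Lamtor genes are given for the lysosomal scaffold of mTORC1. Lamtor3 (-0.47, SE 0.11, edgeR adjusted p = 0.00453) and Lamtor4 (-0.45, SE 0.16, edgeR adjusted p = 0.0476) were called lower, Lamtor4 with overlapping groups. Lamtor5 was called higher (0.38, SE 0.10, edgeR adjusted p = 0.0119), and Lamtor1 (-0.12) and Lamtor2 (-0.08) were not called. With the neighbour correction 5 were higher and 2 lower. Lamtor4 lost its call (-0.38, edgeR adjusted p = 0.107), and the other called genes named here kept theirs.

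Lysosomal genes are abundant in macrophages, so markers of other cells were read in the same libraries. Of 11 macrophage markers 2 were tested, and both rose: Cd14 by 1.47 (SE 0.13, edgeR adjusted p = 8.90e-06) and Csf1r by 1.68 (SE 0.27, edgeR adjusted p = 0.000506). Csf1r was under 1 cpm in every mock library. It passed the filter through the METTL7A1 libraries alone, which favours a rise. The summed level of the 11 was 19.0 to 22.1 cpm in METTL7A1 and 7.77 to 10.7 cpm in mock cells, most of it from Cd14. Mrc1, a mannose receptor of macrophages that did not pass the abundance filter, went the other way without a test, at 0.216, 0.271 and 0.568 cpm in METTL7A1 and 0.875, 2.02 and 1.33 cpm in mock replicates 1 to 3. Here the groups did not overlap. Ptprc, the pan-leukocyte marker, was at 0.232 cpm in METTL7A1 and 0.209 cpm in mock cells on average, Adgre1 at 0.0113 and 0 cpm, and Cd163 and Tyrobp had 0 counts in all 6 libraries, so that counting error alone would hide a level under 0.102 to 0.164 cpm, according to the library. Of 8 fibroblast markers 1 was tested, Pdgfra, which rose by 0.47, with summed levels of 24.0 to 26.8 and 17.5 to 19.8 cpm and Lum at 0 counts throughout. All 8 epithelial markers were tested, with sums of 2283 to 2769 cpm in METTL7A1 and 1948 to 2361 cpm in mock cells, so the epithelial origin of the line was visible in both groups. Of these 8 markers 3 rose (37.5%, beside 21.1% of all tested genes) and 5 were not called. Cldn4 rose by 1.19 (SE 0.12), Krt7 by 0.50 (SE 0.09) and Cldn7 by 0.33 (SE 0.11). Their edgeR adjusted p were 2.40e-05, 0.00126 and 0.0298, and with the neighbour correction Krt7 was not called. The part of the marker changes in the lysosomal rise was not tested.

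Exons of several lysosomal genes overlap a gene on the opposite strand, and how strand was used in counting is not given in the sources used here. The partners of Lamp1 (Grtp1, 13 to 46 counts), Ctsa (Pltp, 49 to 140 counts) and Atp6v1h (Rgs20, 6 to 43 counts) had few counts. Those of Ctsb (Fdft1, 1324 to 2465 counts), Ctsz (Nelfcd, 525 to 808), Ppt1 (Cap1, 3264 to 5820) and Npc1 (3110002H16Rik, 461 to 757) had more, over shared stretches of 767, 10, 32 and 192 bases. On the same strand, exons of Ctsd share 670 of 2127 bases with RP23-145I16.3, which had 0 counts in every library. How reads over shared bases were counted is not given in the sources used here. The part of these overlaps in the values was not tested.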

How the data were processed

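RNA of 4T1 cells was sequenced in 6 libraries, 3 METTL7A1 and 3 mock, grouped by the titles in the labels. The authors trimmed reads with BBDuk, aligned read pairs to mm10 with STAR 2.5.3a (version per the labels) and counted them over Ensembl genes with featureCounts. The deposited values are these raw counts, with no normalization. Per the file headers the table also gives exon length in bases, used here for levels per kilobase. How strand and multiply mapped reads were handled is not given in the sources used here. Coordinates are those of mm10, counted from 1.

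The analysis used edgeR 4.0.16 under R 4.3.3. A gene needed 1 cpm or more in 3 or more libraries (13166 genes), the filter of the study. Libraries were scaled by TMM, and groups were compared by glmQLFit and glmQLFTest with no covariate. SE is the log2 fold change over the square root of F, and intervals use the t distribution with the degrees of freedom of the fit. Replicates of a group differed beyond counting noise, so none was counted as a duplicate. The members, roles and other lists were chosen with earlier results of these data known, so lists carry counts and medians without tests. All 39 members are named, of each other list at most 5 called genes with the smallest p, and others where stated. Some listed genes are counted but not reported here by name. Alternatives were scaling by RLE or by the upper quartile, no abundance filter, at least 10 counts in every library, DESeq2 1.42.0, voom (limma 3.58.1), a block for the replicate number, leaving out each library in turn, an offset from the 40 nearest genes of a chromosome with an average log2 cpm over 2, and the thresholds of the study. The fit was tested on simulated counts first. Promoter windows are from RefSeq (GRCm38.p6).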

Additional observations from a re-analysis of the deposited data

How the results depend on the processing

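Of 38 tested transcripts, 19 were called higher and 2 lower, and 13 of these 21 kept their call under every alternative other than the thresholds of the study. RLE and upper quartile scaling, both filters, DESeq2 and voom gave 18 to 20 higher and 2 or 3 lower. Of all genes tested in each of these fits, 11.6% (no abundance filter) to 21.8% were higher and 9.31% to 21.0% lower. Leaving out each library gave 14 to 23 higher, 1 to 5 lower and a median log2 fold change of 0.21 to 0.37. In these fits 14.7% to 22.5% of all tested genes were higher and 14.2% to 22.0% lower. The smallest count of higher calls, 14, came without METTL7A1 replicate 2, where the share higher of all tested genes was also smallest, at 14.7%. The largest, 23, came without METTL7A1 replicate 1, beside 21.0% of all tested genes. The count of lower calls was 1 without METTL7A1 replicate 3 or mock replicate 1, where Man2b1 was lost, and 5 without mock replicate 3. At the thresholds of the study 0 were higher and 0 lower in edgeR, since no log2 fold change passed 1.5. With replicate number as a block 18 were higher and 2 lower, beside 18.7% and 17.8% of all tested genes. The median was 0.26, and Tfeb was lost (adjusted p = 0.0813 in edgeR). Deviations of same-numbered libraries from their group means correlated at -0.16, 0.23 and -0.39 over genes. Differently numbered libraries were not compared in this way, so these values cannot decide whether the numbers pair libraries.

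With the neighbour correction 19 were higher and 2 lower, beside 18.1% and 13.4% of all tested genes. Cd63 turned to -0.068 and Atp6v1a to -0.0096. Over fits without 1 library the log2 fold change of Npc2 ran from -0.023 to 0.25, that of Atp6v1b2 from -0.029 to 0.071 and that of Atp6v0a1 from -0.024 to 0.16. Of these 5 transcripts Cd63 alone was called with all libraries and no correction. Of 532 alternative values 480 kept direction and call, 27 lost and 18 gained a call, and 7 changed sign. The cause was not tested. Counts of the scarcest transcripts, Tfeb and Hexa, limit their precision, with an SE of 0.18 and 0.19.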
